A study of Mus musculus with 17 samples.

Results

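Kit+ cells of the mouse aorta-gonad-mesonephros (AGM) region that had spent 2 h on OP9-Jag1 stroma (Kit+J, 3 arrays) were compared with Kit+ cells analysed fresh (Kit+, 3 arrays), across 19937 genes. These 6 arrays were chosen by their sample titles from the 17 arrays of the series. All cells came from pools of AGM regions of E11.5 embryos, whose strain the labels do not give. Fresh Kit+ cells carried CD31 and Kit and lacked CD45 and Ter119. Kit+J cells began as the whole CD31+CD45-Ter119- fraction, which holds cells with and without Kit, and were harvested and gated as CD31+CD45-Kit+ only after the culture, so that a Kit+J cell need not have carried Kit when it was seeded. OP9 is a mouse bone marrow stromal line, here made to express the Notch ligand Jag1, and the medium held IL3, SCF, IL6, IGF-1, FGF, VEGF, erythropoietin and serum. Replicates were independent sorting experiments according to the methods. The fresh arrays were taken from an earlier series, and no group was cultured on stroma without an added ligand. Culture, second sort, cytokines, ligand and array set therefore cannot be told apart in this comparison. Other groups are used for reference only: Kit+D (the same culture on stroma with the ligand Dll4, 3 arrays, of which replicate 3 has 1 label line that names Kit- cells), fresh Kit- cells (3 arrays), Kit-J cells (2 arrays, for both of which 1 line of the labels names the opposite Kit population) and Kit-D cells (Kit- cells from OP9-Dll4, 3 arrays, of which replicate 3 has such a line). All 17 arrays enter the fit and its estimate of the spread. Values are log2 signals of the array, so that a difference of 1 is a doubling, and each difference is Kit+J minus Kit+ unless another is named.

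The AGM is the site where the first haematopoietic stem cells arise from the endothelium of the dorsal aorta, and its Kit+CD31+ fraction holds the cells of the emerging clusters. Jag1 and Dll4 bind Notch receptors on neighbouring cells, and the cleaved receptor enters the nucleus to act with Rbpj on target genes such as those of the Hes and Hey families. Immediate early genes such as Jun, Fos and the Nr4a nuclear receptors are transcribed within minutes of a stimulus, and their short-lived transcripts are also known to be raised in cells freshly released from tissue by enzymes. Haem oxygenase, encoded by Hmox1, is a classical gene of the NRF2 response to oxidants and haem.

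After 2 h on OP9-Jag1, 4 genes were called lower than in fresh Kit+ cells, and 0 were called higher (adjusted p under 0.05 from limma over 19937 genes, 0.0201% and 0% of the genes tested). The 4 were Jun and Nr4a1, both immediate early transcription factors, H2bc1, a germline variant of histone H2B, and Eif4e3, a member of the family of mRNA cap-binding proteins. At an unadjusted p under 0.05, 664 genes (3.33%) were higher and 666 (3.34%) lower. The 3 Kit+J arrays lay above all 3 Kit+ arrays in 1131 genes (5.67%) and below them in 1209 (6.06%). When arrays were scaled on housekeeping genes, 4 genes were called higher (Vpreb1, Kif1c, S100a6 and Capn2) and 2 lower (Jun and Nr4a1), and 1414 genes lay higher and 772 lower without overlap. The median difference of all genes was 0.0024, and single genes ran from -2.09 to 2.81. The median standard error was 0.204, which gives a 95% confidence interval of 0.44 to either side of a typical difference.

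Jun encodes a subunit of the AP-1 transcription factor. Its signal was 9.15, 9.53 and 9.27 on Kit+ replicates 1 to 3 and 8.15, 7.57 and 8.05 on Kit+J replicates 1 to 3. The groups did not overlap, and the lowest fresh array lay well above the highest cultured one. Jun fell by 1.39 (standard error 0.165, 95% interval -1.75 to -1.04, 2.63-fold, adjusted p = 0.0101 from limma). Nr4a1, an orphan nuclear receptor also known as Nur77, was at 8.25, 8.41 and 8.16 in fresh cells and at 6.80, 6.41 and 5.82 after culture. These groups did not overlap either, and Nr4a1 fell by 1.93 (standard error 0.254, 95% interval -2.47 to -1.38, 3.80-fold, adjusted p = 0.019 from limma).

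H2bc1 was at 7.11, 7.47 and 7.86 on the fresh arrays and at 6.24, 5.46 and 5.48 on the cultured arrays. All cultured arrays lay below the fresh ones, with a fall of 1.75 (standard error 0.248, adjusted p = 0.0284 from limma). Eif4e3 was at 6.37, 6.69 and 6.85 in Kit+ and at 5.19, 5.61 and 5.34 in Kit+J. It fell by 1.26 (standard error 0.188, adjusted p = 0.041 from limma), again with no overlap of arrays. Calls at this sample size rested on single arrays: in the 6 fits that each left out 1 array, Jun kept its call in 4 (missed without Kit+ replicate 2 or 3, highest adjusted p = 0.12 from limma), Nr4a1 in 2 (missed without any 1 of the Kit+ arrays or Kit+J replicate 2, highest 0.198), H2bc1 in 2 (missed without Kit+ replicate 2 or 3 or Kit+J replicate 2 or 3, highest 0.201) and Eif4e3 in 0 (0.0501 to 0.213). None of the 4 changed direction in any of the fits tried.

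**Figure D1:**
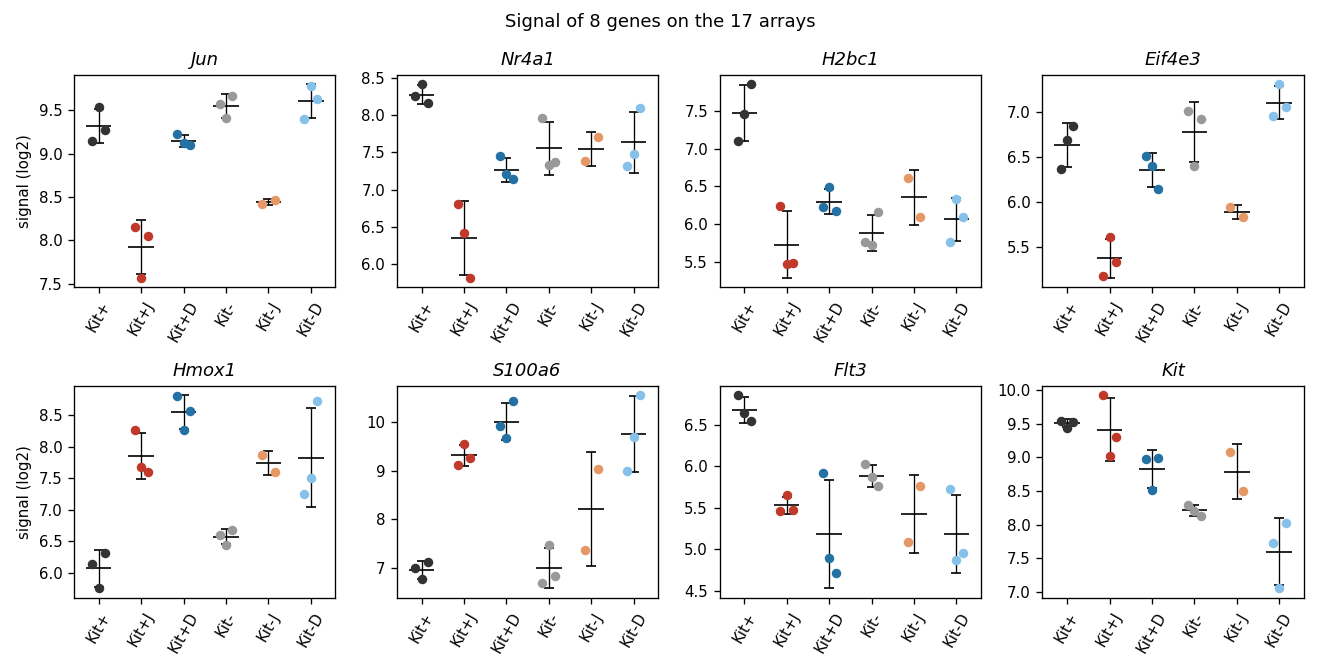
Log2 signal of 8 genes on the 17 arrays, by group on the x axis. Points are arrays, horizontal lines group means and bars 1 SD. Jun, Nr4a1, H2bc1 and Eif4e3 are lower on all 3 Kit+J arrays than on all 3 Kit+ arrays, Hmox1 and S100a6 are higher, and Kit+J arrays lie on both sides of Kit+ for Kit.

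The promoters of the called immediate early genes are shown because both genes fell in the same cells, one of them also in Kit-J cells. Promoters are from RefSeq (mouse build GRCm38.p6), from 250 bases before the annotated transcription start to 50 after it. Capitals mark the letters TGACG, the core of the cyclic AMP response element, read on either strand (CGTCA where it lies on the other strand).
Nr4a1 (chr15:101266596-101266895, forward strand): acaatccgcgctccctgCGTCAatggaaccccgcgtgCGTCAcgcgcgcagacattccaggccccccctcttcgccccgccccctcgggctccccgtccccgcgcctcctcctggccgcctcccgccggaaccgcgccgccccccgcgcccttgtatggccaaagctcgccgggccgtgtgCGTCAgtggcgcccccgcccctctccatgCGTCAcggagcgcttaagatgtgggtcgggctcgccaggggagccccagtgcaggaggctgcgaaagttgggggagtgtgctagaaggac
Jun (chr4:95052173-95052472, reverse strand): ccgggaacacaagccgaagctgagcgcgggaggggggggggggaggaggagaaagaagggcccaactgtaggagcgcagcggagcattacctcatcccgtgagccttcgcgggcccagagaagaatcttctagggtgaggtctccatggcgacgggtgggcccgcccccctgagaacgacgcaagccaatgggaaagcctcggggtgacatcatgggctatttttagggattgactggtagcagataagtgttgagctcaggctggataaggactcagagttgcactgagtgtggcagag
The Nr4a1 window held 4 such cores, with first bases at -233, -213, -69 and -40 from the start, and the Jun window held 0. At least 4 were found in 76 of 32851 promoters of the same length (0.231%), and at least 1 in 20.8%. Neither window held the full element TGACGTCA, which contains the core and was found in 1.79% of promoters, nor the AP-1 element TGANTCA (7.81%), the CArG box (1.63%) or the antioxidant core TGACNNNGC (12.4%), all searched on both strands. Only these exact patterns were sought, so variants were not counted: the Jun window holds TGACATCA, which differs from the full element by 1 letter. A match describes letters only and is no measurement of binding.

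Of the 38 immediate early and dissociation genes measured, 2 fell (Jun and Nr4a1) and 0 rose. In 10 (26.3%) all Kit+J arrays lay below all Kit+ arrays, and in 0 above, beside 6.06% and 5.67% of all genes. The median of the list was -0.34, against 0.0024 over all genes. The lists were written with earlier results of these data known, so that these counts are a description. The other members without overlap were Nr4a2 (-1.67), Nfkbia (-1.62), Egr2 (-0.90), Rhob (-0.72), Fos (-0.58), Nr4a3 (-0.48), Mcl1 (-0.42) and Ier3 (-0.39), with adjusted p from 0.214 to 0.88 (limma). All 3 genes of the Nr4a family were thus among them. Nr4a2 varied within the fresh group, at 9.20, 9.07 and 7.80, against 6.75, 7.80 and 6.52 in Kit+J. Fosb differed among the cultured arrays, from 5.81 on replicate 3 to 7.78 on replicate 2, and overlapped with fresh cells. Of the 38, 27 had a difference below 0 and 11 above. Atf3, Zfp36, Dusp1, Junb, Klf2, Klf6 and Maff overlapped between the groups, with differences from -0.33 (Junb) to 0.55 (Maff). Per array, the mean of the list lay 0.378, 0.257 and 0.484 below the Kit+ mean on Kit+J replicates 1 to 3, while the Kit+ arrays themselves ran from -0.179 to 0.155.

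Heat shock genes, which encode chaperones induced by misfolded proteins, had a median of -0.20. In 6 of the 12 measured (50%, beside 6.06% of all genes) Kit+J lay below Kit+ on every array, and 0 of the 12 were called. Scaled on housekeeping genes, 2 lay lower without overlap, beside 772 of all 19937 genes. Hspa1a, the inducible Hsp70, was at 7.82, 7.65 and 7.18 in fresh cells and at 5.82, 5.92 and 5.70 after culture. This difference of -1.74 (standard error 0.341) did not pass the threshold (adjusted p = 0.145 from limma). Hspa1a has a near-identical neighbour, Hspa1b, and their probes may read both. Other chaperones of the list differed less. Hspa8 (-0.23) and Hspd1 (-0.14) lay lower without overlap, while Hsp90aa1 (0.03) and Hspe1 (-0.08) overlapped.

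Core histone genes of the replication-dependent clusters had the lowest median of all 29 lists, at -0.70. Their transcripts accumulate in S phase and end in a stem-loop in place of a poly(A) tail. Of 22 measured, H2bc1 was called lower, 8 (36.4%, beside 6.06% of all genes) had no overlap and were lower, and 0 were higher without overlap. H2bc9 was at 10.02, 10.41 and 10.32 in Kit+ and at 9.64, 9.09 and 9.33 in Kit+J (-0.90, standard error 0.167, adjusted p = 0.0972 from limma). H2bc14 was at 9.59, 9.51 and 9.72 against 9.09, 8.34 and 8.11 (-1.10, standard error 0.229, adjusted p = 0.183 from limma). The cultured arrays did not lie together, since the mean of the list was 0.227 below the Kit+ mean on Kit+J replicate 1, 0.773 on replicate 2 and 1.09 on replicate 3. Without Kit+J replicate 1 the median of the list was -0.95, without replicate 3 it was -0.49, and when replicate 1 was left out 11 genes were called lower, among them H2bc1, H2bc14, H2bc3, H2bc9, H2ac15 and H4c4, and 7 higher. Histone genes of a class are close copies of each other, so that a probe set may read more than 1 of them. The other genes of S phase had no lower median: over 32 cell cycle and replication genes it was 0.03, with 0 called. Without overlap 4 (12.5%) lay lower, among them Cdk4 (-0.43), and 1 (3.12%) higher, beside 6.06% and 5.67% of all genes. After housekeeping scaling 1 lay lower and 1 higher, beside 772 and 1414 of all 19937 genes. Mcm2, the highest, differed by 0.44, Top2a by 0.06, and Rrm1, a ribonucleotide reductase subunit, by -0.82 through Kit+J replicate 2 alone (8.99, 7.14 and 9.06, beside 8.83, 9.52 and 9.31 in Kit+).

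**Figure D2:**
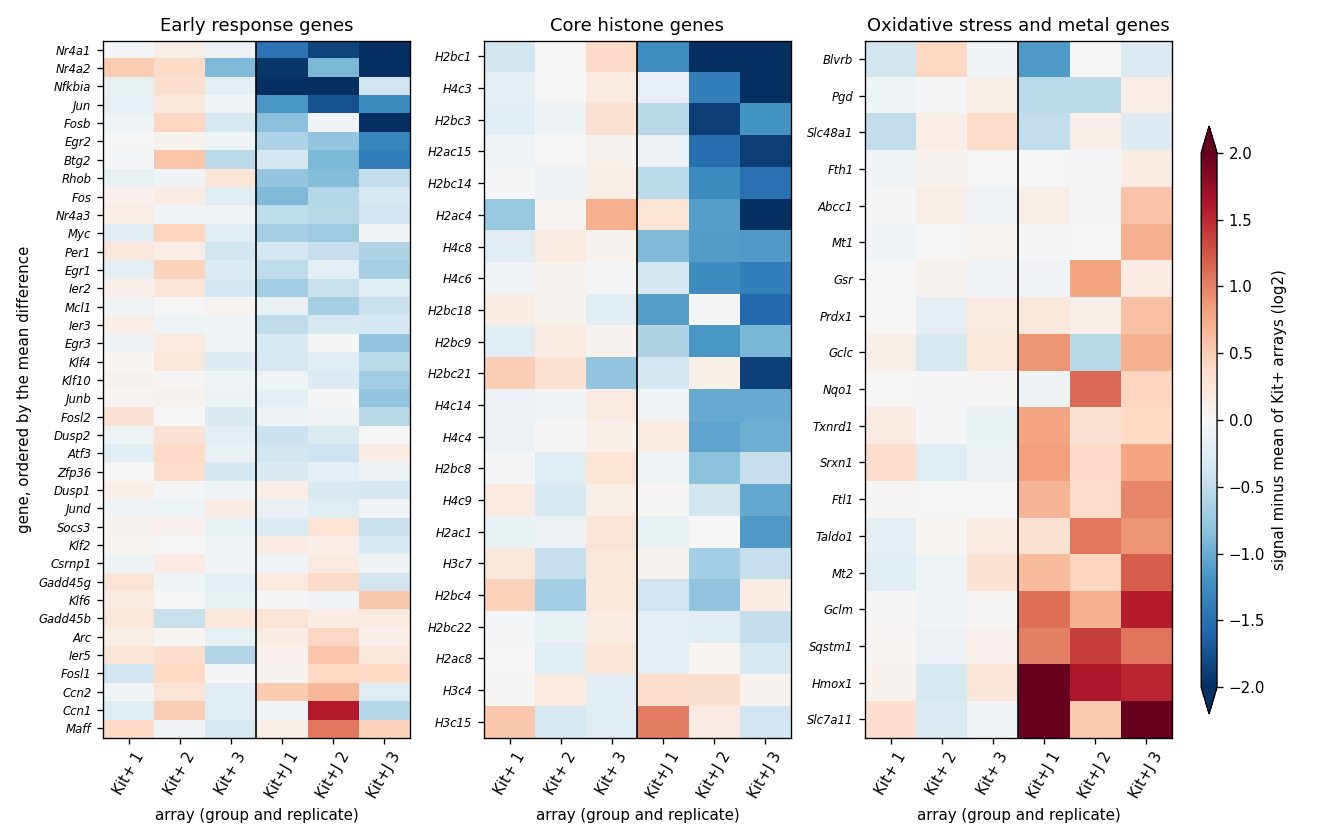
Signal of each gene on the 6 arrays minus the mean of the Kit+ arrays (log2, colour scale from -2 to 2), for 38 immediate early, 22 histone and 19 oxidative stress and metal genes, ordered by their mean difference. Blue is lower and red higher than the Kit+ mean; the histone genes are palest on Kit+J replicate 1.

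In the other direction, the 10 genes with the smallest p among those higher without overlap were Taf3, Gpat3, S100a6, Hmox1, Sema6a, Spata1, Vpreb1, Ammecr1l, Palb2 and Sos1. None of the 10 passed the threshold (adjusted p from 0.0522 to 0.0972 from limma). Taf3, a subunit of the general transcription factor TFIID, came closest. It was at 7.09, 7.12 and 6.74 in fresh cells and at 8.36, 8.74 and 8.12 after culture (1.42, standard error 0.222, adjusted p = 0.0522 from limma). S100a6, a small calcium-binding protein, ran from 6.76 to 7.12 in Kit+ and was at 9.12, 9.55 and 9.27 in Kit+J (2.35, standard error 0.405, adjusted p = 0.0835 from limma). Vpreb1, which encodes part of the surrogate light chain of pre-B cells, was at 4.86, 5.15 and 4.94 against 6.77, 8.29 and 7.25 (2.45, standard error 0.431, adjusted p = 0.0835 from limma). Its fresh values lay below the median of all signals (5.29). Sos1, the exchange factor that activates Ras downstream of receptors such as Kit, differed by 0.95, and Palb2, the partner of Brca2 in DNA repair, by 0.98.

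Oxidative stress and metal genes had the highest median of the 29 lists, at 0.49, with 0 of 19 called. In 9 (47.4%) all Kit+J arrays lay above all Kit+ arrays, and in 0 below, beside 5.67% and 6.06% of all genes. Hmox1 was at 6.14, 5.75 and 6.32 in Kit+ and at 8.27, 7.68 and 7.59 in Kit+J, with no overlap (1.77, standard error 0.308, adjusted p = 0.0835 from limma). Sqstm1, the autophagy receptor p62, was at 7.63, 7.46 and 7.67 against 8.60, 8.97 and 8.65 (1.16, adjusted p = 0.145 from limma). Both are transcribed under NRF2, as are Gclm, the regulatory subunit of glutathione synthesis (1.13), Txnrd1, thioredoxin reductase (0.49), Srxn1, sulfiredoxin (0.66), and Taldo1 of the pentose phosphate pathway (0.74), all of which lay higher without overlap. Slc7a11, the cystine transporter, differed by 1.99 but was dim in fresh cells, at 3.61, 3.01 and 3.22, and uneven after culture, at 6.15, 3.80 and 5.86. Mt2 (0.76) and Ftl1 (0.68) lay higher without overlap too. The remaining members overlapped. Among them Nqo1, a common NRF2 target, was at 4.53, 5.76 and 5.06 in Kit+J against 4.61 to 4.65 in Kit+. Fth1, ferritin heavy chain, differed by 0.04.

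**Figure D3:**
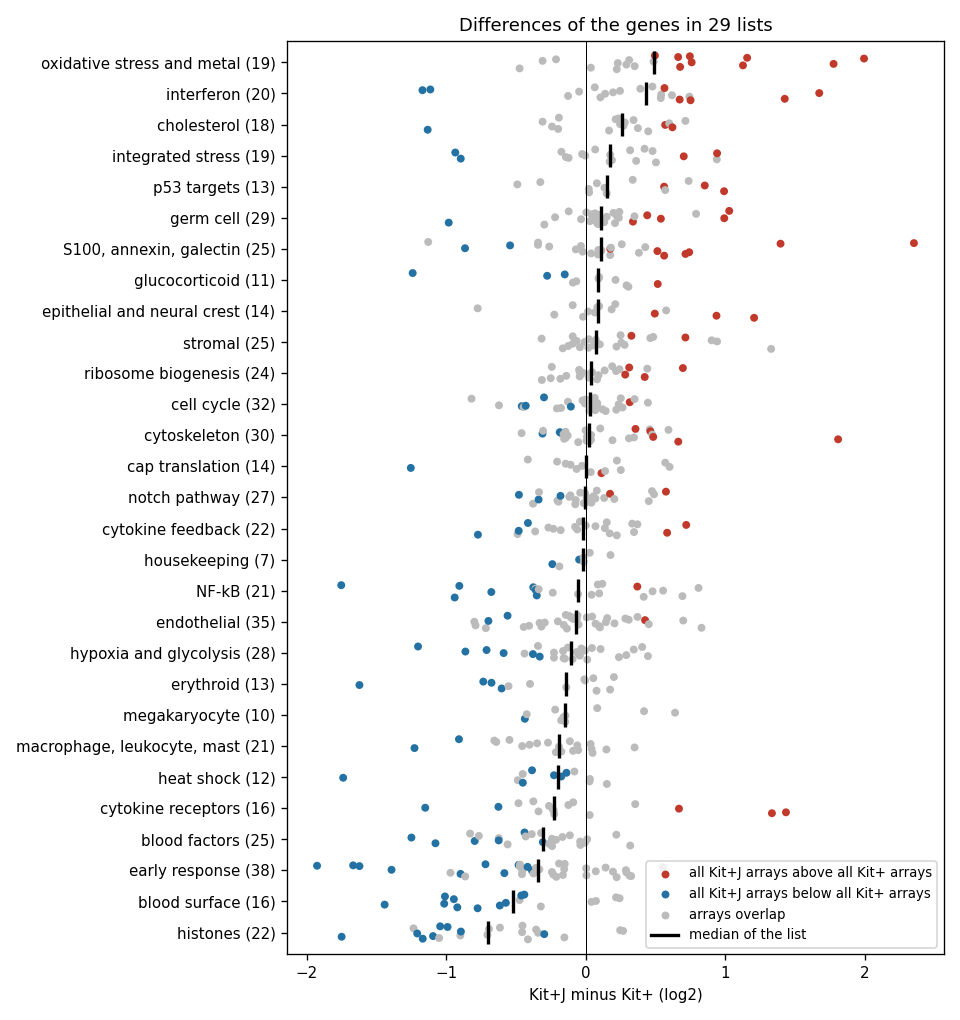
Difference between Kit+J and Kit+ (x axis, log2) of each gene in 29 lists, ordered by the median of the list (black bars), with the number of genes measured in brackets. Red and blue points are genes whose Kit+J arrays lie all above or all below the Kit+ arrays; histone genes (-0.70) and oxidative stress genes (0.49) are at the ends.

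Several genes of blood progenitors had lower values after culture, although 0 were called in either the list of surface genes or that of transcription factors. Of 16 surface, granule and leukocyte genes, 10 (62.5%) lay lower on every Kit+J array and 0 higher, beside 6.06% and 5.67% of all genes. The median was -0.52. Mpo, the myeloperoxidase of granulocyte precursors, was at 9.87, 10.08 and 9.99 in Kit+ and at 8.94, 8.91 and 9.25 in Kit+J. Rac2, a GTPase of blood cells, was at 8.68, 8.95 and 8.72 against 7.65, 8.13 and 7.54. Arrays of each group lay close together for both, but the standard errors were 1.26 and 0.97, in a fit that shares 1 estimate of the spread among all groups. The means of the list ran from -1.80 to 0.913 over the Kit+D arrays and from -1.03 to 0.256 over the Kit-D arrays, relative to Kit+. When no OP9-Dll4 array was fitted, an alternative added after the data had been seen, they were 0.23 for each, and the adjusted p 0.197 and 0.164 (limma). Cd48, a marker of multipotent progenitors, was at 6.02, 4.63 and 6.14 against 4.12, 4.09 and 4.24, and Cd93, a surface protein of endothelium and early progenitors, at 7.31, 7.43 and 7.29 against 5.62, 6.47 and 6.88. Cd34 (-0.32), Itga2b (CD41, 0.07), Procr (0.24) and Ptpn6 (0.22) overlapped between the groups.

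Of 25 blood transcription factor genes, 22 were below 0, 6 (24%, beside 6.06% of all genes) without overlap, and the median was -0.31. Lmo2, the bridging protein of the Tal1 and Gata complexes, was at 7.89, 7.92 and 7.99 in fresh cells and at 6.22, 7.15 and 6.67 in Kit+J (-1.25, standard error 0.33, adjusted p = 0.316 from limma). Fli1, an Ets factor, differed by -1.08, Hhex by -0.80, Hlf, a factor of stem cells, by -0.62, and Zfpm1 and Gfi1 by -0.44 and -0.31. Runx1 (-0.39) and Tal1 (-0.32) overlapped, and Gata2 (-0.01), Myb (-0.12) and Gfi1b (-0.04) were close to 0. In RNA from a sorted pool, fewer cells of a type and less RNA per cell cannot be told apart. The genes of the gate overlapped between the groups: Kit was at 9.55, 9.44 and 9.54 in Kit+ and at 9.93, 9.02 and 9.30 in Kit+J (-0.09, 95% interval -0.64 to 0.46), and Pecam1, which encodes CD31, differed by 0.52 (-0.15 to 1.20). Ptprc, which encodes the excluded CD45, was at 8.35, 8.57 and 8.55 against 7.84, 7.38 and 8.61.

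Receptors for the cytokines of the medium differed in direction. Flt3, the receptor for Flt3 ligand, which was not among the cytokines listed for the medium, was at 6.86, 6.64 and 6.54 in Kit+ and at 5.46, 5.65 and 5.48 in Kit+J (-1.15, standard error 0.288, adjusted p = 0.308 from limma). Igf1r, for IGF-1, differed by -0.63 without overlap. Csf2rb2, the IL3-specific beta chain of the mouse, was at 5.50, 5.97 and 5.81 against 7.06, 7.40 and 7.12, and its paralogue Csf2rb, the common beta chain, at 6.37, 6.65 and 6.94 against 8.08, 7.41 and 8.47. These 2 differed by 1.43 and 1.33, without overlap but with adjusted p of 0.786 and 0.893 (limma), and their probes may read both. The 22 feedback and target genes of such receptors had a median of -0.02. Without overlap 2 lay higher (9.09%) and 3 lower (13.6%), beside 5.67% and 6.06% of all genes. The 5 were Socs2 (0.72) and Cish (0.58), targets of STAT5, and Bcl3 (-0.77), Dusp6 (-0.48) and Spry1 (-0.42). With housekeeping scaling 1 lay lower, beside 772 of all 19937 genes.

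Notch pathway genes had a median of -0.01 over 27 measured, with 0 called. Without overlap 2 lay higher (7.41%) and 3 lower (11.1%), beside 5.67% and 6.06% of all genes. After housekeeping scaling 4 lay higher and 1 lower, beside 1414 and 772 of all 19937 genes. Hes1 was at 6.95, 7.14 and 7.10 in Kit+ and at 6.77, 6.65 and 6.76 in Kit+J (-0.34), lower without overlap, as were Mfng (-0.48) and Lfng (-0.18), which encode Fringe glycosyltransferases. Numb, an inhibitor of Notch, lay higher at 8.44, 8.63 and 8.35 against 7.91, 8.27 and 7.52 (0.57, adjusted p = 0.469 from limma), and so did Notch2 (0.17). Hey1 differed by 0.07, Hey2 by 0.13, Heyl by 0.01, Nrarp by -0.34, Notch1 by 0.49 and Rbpj by 0.47, all with overlap. Jag1, the gene that the stroma overexpresses, was at 4.89, 4.62 and 4.97 in Kit+J, within the range of fresh cells (4.49 to 5.20).

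In the further lists described here 0 genes were called. Endothelial genes had a median of -0.07 over 35 measured. Without overlap 1 (2.86%) lay higher and 2 (5.71%) lower, no more than the 5.67% and 6.06% of all genes. Tek, the angiopoietin receptor, was among the lower, at 4.72, 4.54 and 4.44 against 5.20, 5.08 and 5.12. Kdr, the VEGF receptor 2 gene, differed by 0.14. Interferon genes had a median of 0.43 over 20, with 5 higher (25%) and 2 lower (10%) without overlap, beside 5.67% and 6.06% of all genes. Ifih1, an RNA sensor, differed by 1.43 and Bst2 by 0.75, while the immunoproteasome genes Psmb8 and Psmb9 differed by -1.17 and -1.12. Among 21 NF-kB genes 7 (33.3%) lay lower and 1 higher without overlap, beside 6.06% and 5.67% of all genes. With housekeeping scaling 4 lay lower, beside 772 of all 19937 genes. Tnfaip3, the feedback inhibitor A20, was at 7.04, 7.50 and 6.79 in Kit+ and at 5.25, 5.12 and 5.70 in Kit+J (-1.75, adjusted p = 0.41 from limma), whereas Ptgs2 differed by 0.81. Of 25 S100, annexin, galectin and related membrane and cytoskeleton genes (among them Ahnak and Lmna), 7 (28%) lay higher without overlap and 2 (8%) lower, beside 5.67% and 6.06% of all genes. Those higher included S100a4 (1.40), Anxa5 (0.74) and Anxa2 (0.71), which bind calcium and membranes, and those lower were Lgals9 (-0.87) and S100a13 (-0.54). Of 28 glycolysis and hypoxia genes 6 (21.4%, beside 6.06% of all genes) lay lower without overlap, with 0 higher. Tpi1 (-1.20), Pdk1 (-0.86), Pfkl (-0.71) and Ldha (-0.38) were among these 6. Under housekeeping scaling 3 of the list lay lower, beside 772 of all 19937 genes. Ccng1 (0.99) and Mdm2 (0.56), both p53 targets, were among the 3 of 13 such genes (23.1%, beside 5.67% of all genes) that lay higher without overlap, with 0 lower. Of 19 integrated stress genes 2 lay higher without overlap, Sesn2 (0.94) and Mthfd2 (0.70), and 2 lower, Shmt2 (-0.94) and Dnajb9 (-0.90). Each pair was 10.5% of the list, beside 5.67% and 6.06% of all genes. Capn2, a calcium-dependent protease, was at 5.84, 6.16 and 6.36 against 7.32, 8.11 and 8.34 (1.81, adjusted p = 0.208 from limma).

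Markers of other cells were followed as lists, since the gate can hold germ cells, which carry Kit, and harvested stroma. Germ cell genes were bright in both groups: Dppa5a had a mean of 11.81 and Pou5f1 of 9.78 in Kit+. The mean of the 29 germ cell genes lay at 0.388, 0.0267 and 0.0853 relative to Kit+ on Kit+J replicates 1 to 3, beside -0.152 to 0.146 on the fresh arrays. Of the 29, 24 had a difference above 0 and 5 below. Without overlap 5 (17.2%) lay higher, among them Nanog (0.99) and Zfp42 (1.03). Only Dppa2 (-0.98) lay lower (3.45%), beside 5.67% higher and 6.06% lower of all genes. The 25 stromal genes lay at 0.229, 0.534 and -0.0949 (fresh, -0.0418 to 0.0583), with Acta2 (1.33), Lox (0.94) and Mgp (0.90) the furthest apart, Col1a1 at -0.04 and Pdgfra at 0.07. The 21 macrophage, leukocyte and mast cell genes lay at -0.531, -0.336 and 0.0434 (fresh, -0.152 to 0.108) and the 13 erythroid genes at -0.399, -0.379 and -0.203 (fresh, -0.0974 to 0.145), with the embryonic globin Hbb-y at -1.62. The epithelial and neural crest list lay at 0.126, 0.400 and 0.0624 (fresh, -0.12 to 0.0719), Cdh1 differing by 1.21. The part of these cells in the results above was not tested.

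**Figure D4:**
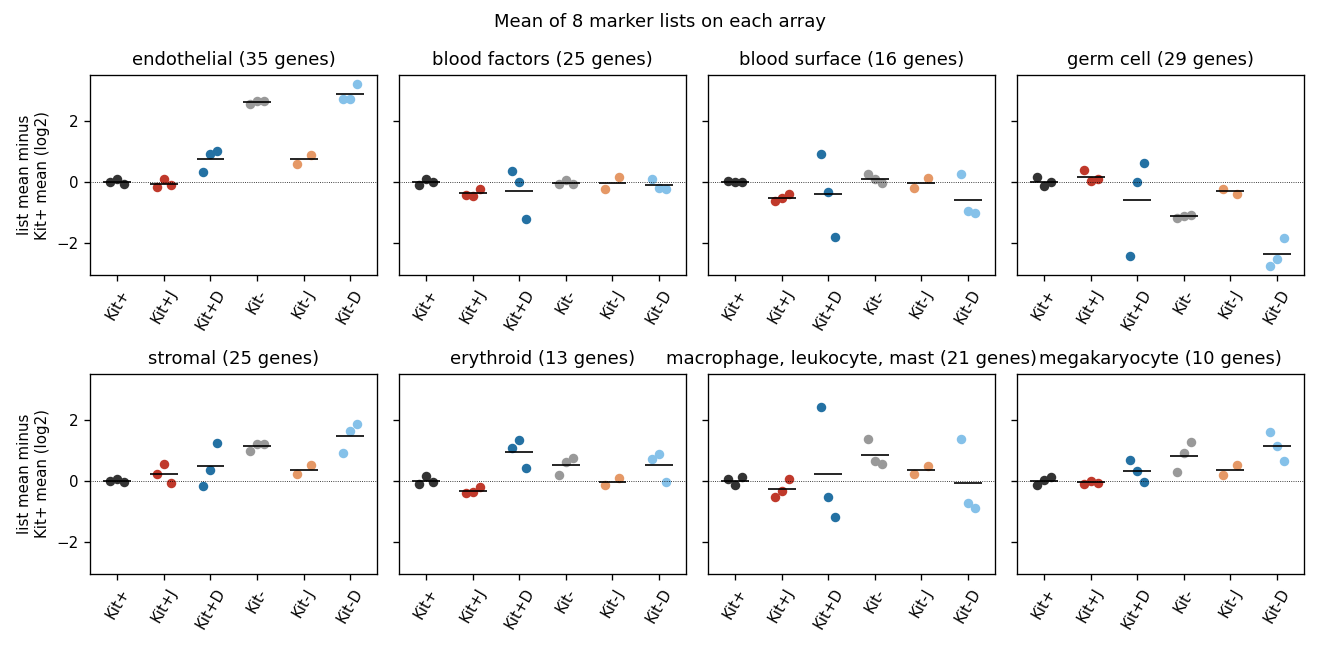
Mean of 8 marker lists on each of the 17 arrays, minus the Kit+ mean (y axis, log2), by group. Points are arrays and lines group means. All 3 Kit+J arrays lie below the Kit+ arrays in the lists of blood transcription factors, blood surface genes and erythroid genes, the stromal mean reaches 0.534 on Kit+J replicate 2, and the 3 Kit+D arrays lie far apart in the myeloid and germ cell lists.

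Kit+J replicate 2 stood apart from the other arrays. Its distance to each of the other 5 was 71.4 to 79.9 (Euclidean, log2, over all genes), beside 50.3 to 53.8 among the Kit+ arrays and 65.6 between Kit+J replicates 1 and 3, and limma gave it a weight of 0.352, beside 1.013 to 1.711. Without it, Jun was called lower and Spata1 higher, and the others missed the threshold. With array weights, the 4 genes were called and 5 more were called higher.

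The other cultured groups were set beside these values. Kit+D and Kit+J share the fresh Kit+ arrays, so only their own contrast compares the stromas. Kit+D differed from Kit+ in 283 genes (1.42%), and Kit+J from Kit+D in 449 (2.25%). Jun was at 9.22, 9.12 and 9.10 in Kit+D, close to fresh cells (-0.17, adjusted p = 0.637 from limma), and differed by -1.22 between the stromas (Jag1 minus Dll4, adjusted p = 0.00327 from limma). So did Eif4e3 (-0.97, adjusted p = 0.0194 from limma). Nr4a1 differed from fresh cells by -1.01 in Kit+D (adjusted p = 0.0642 from limma) and between the stromas by -0.92 (adjusted p = 0.0738 from limma), neither past the threshold. H2bc1 fell in Kit+D too, by 1.18 (adjusted p = 0.0341 from limma). Hmox1 and S100a6 rose in Kit+D, by 2.47 and 3.04 (adjusted p = 0.00319 and 0.00381 from limma), and their differences between the stromas, -0.69 each, did not pass the threshold (0.237 and 0.372). Of the 22 histone genes 11 were called lower on OP9-Jag1 than on OP9-Dll4, such as H2bc14 (-1.52) and H4c6 (-2.33), and 0 higher. Of all 19937 genes 334 were called lower in this contrast and 115 higher. Against fresh cells the median of the histone list was -0.7 in Kit+J and 0.46 in Kit+D. The gap between the stromas thus held higher values in Kit+D as well as lower values in Kit+J. H4c6 itself rose in Kit+D against fresh cells (1.34, adjusted p = 0.0254 from limma). The Kit+D arrays were uneven: the myeloid list lay at 2.41, -0.541 and -1.20 and the germ cell list at -2.45, -0.0114 and 0.629 on replicates 1 to 3 relative to Kit+, and their part in these differences was not tested.

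**Figure D5:**
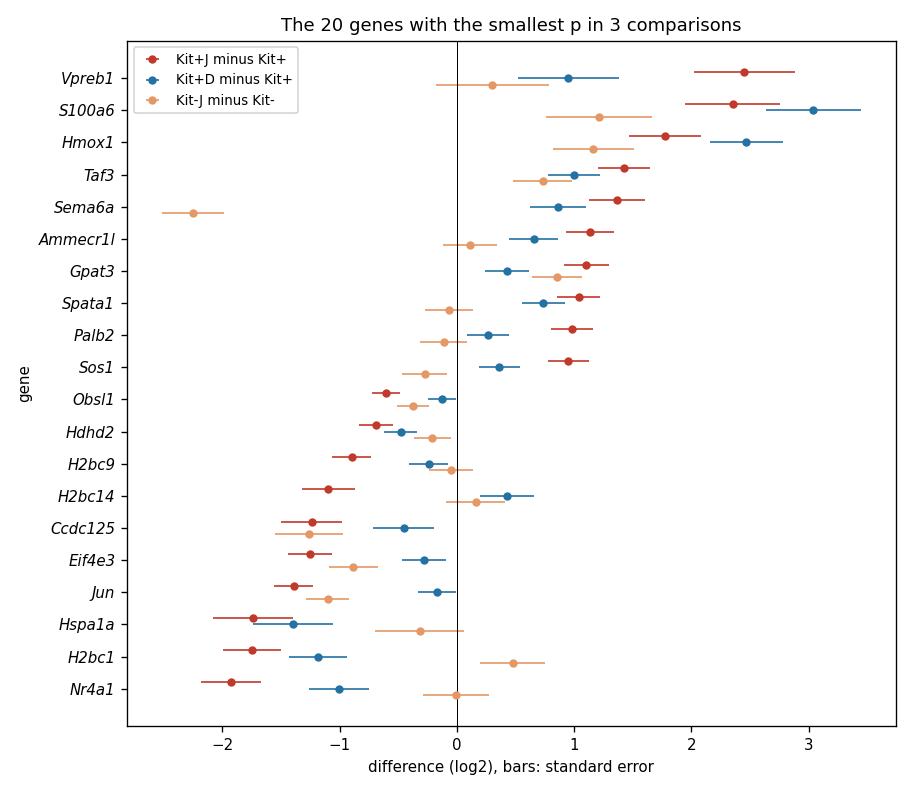
Difference (x axis, log2, bars are 1 standard error) of 20 genes for Kit+J minus Kit+, Kit+D minus Kit+ (which shares the Kit+ arrays) and Kit-J minus Kit-. They are the 10 genes in each direction with the smallest p in Kit+J against Kit+ by the rule for named genes, which required no overlap. Jun and Eif4e3 are below 0 on OP9-Jag1 in both gates, while for Nr4a1 and H2bc1 the Kit- comparison gives -0.01 and 0.47.

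Kit- cells on the same stroma share no array with the comparison, and Kit-J differed from Kit- in 426 genes (2.14%). By the methods, both Kit gates were recovered after the same culture, and both fresh groups came from the earlier series. Culture and array set therefore cannot be told apart here either, and this comparison is no independent check. Jun fell there as well, from 9.57, 9.40 and 9.67 to 8.42 and 8.47 (-1.10, adjusted p = 0.00469 from limma), and so did Eif4e3 (-0.88, adjusted p = 0.0407 from limma). A difference between the gates in the change of these genes was not detected (-0.29 for Jun and -0.37 for Eif4e3, adjusted p = 0.778 and 0.745 from limma), which does not show that the changes were equal. Nr4a1 stayed at 7.38 and 7.71 in Kit-J, beside 7.33 to 7.96 in Kit-, and its change differed between the gates (-1.92, adjusted p = 0.0359 from limma). H2bc1 differed between them as well (-2.23, adjusted p = 0.0155 from limma). Nr4a1 and H2bc1 were both called on their difference in Kit+ cells, which is part of this contrast. Fresh Kit- cells had an H2bc1 mean of 5.88, near that of Kit+J (5.73), and the part of this starting level was not tested. In all, 116 genes (0.582%) had a change that differed between the gates.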

How the data were processed

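RNA of sorted AGM cells was amplified from a few nanograms and hybridized to Affymetrix Mouse Gene 1.0 ST arrays. The values are log2 signals as the authors deposited them, produced by RMA according to the submitters' processing notes (version not given in the sources used here). RMA removes background, forces all arrays to a common distribution and summarizes each probe set, so that amplification and this step can shrink large differences and shift dim genes. Values ran from 1.24 to 13.58, and the medians of the 6 arrays from 5.22 to 5.34. The number of arrays limits the precision.

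Of 34760 probe sets, 21640 carried 1 symbol, 1321 several and 11799 none, and 21553 matched a RefSeq gene by Entrez number. Where a gene had several probe sets (954 genes), that of the brightest mean was used. A single limma fit (limma 3.58.1, R 4.3.3, data.table package 1.17.8) gave every contrast from group means on all 17 arrays. Variances were moderated, p-values were adjusted by Benjamini-Hochberg over 19937 genes, and genes under 0.05 were called. No test for differential expression is named in the methods. The script was tested on simulated data. Figures were drawn with Python 3.11.15 and matplotlib 3.10.9. Members, lists and the rule for named genes were chosen with earlier results of these data known. That rule took every called gene, the 10 genes in each direction with the smallest p among those without overlap of arrays and with a mean of 5 or more in Kit+ or Kit+J (provisional symbols, small RNAs and olfactory, vomeronasal receptors aside), up to 4 members a list by p, and Nr4a1, Jun, Hmox1, Kit, Pecam1, Ptprc, Cdh5, Jag1, Flt3 and S100a6. Other list members are named as examples chosen after their values were seen. Alternatives covered the arrays fitted, the variance prior, dim genes, scaling on 7 housekeeping genes, repeated quantile normalization, weights for arrays, the treatment of probe sets, a minimum difference of 1, replicate blocks and leaving out each array. A fit without OP9-Dll4 arrays was added after the data had been seen. Promoters came from RefSeq and were searched for 5 motifs.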

Additional observations from a re-analysis of the deposited data

Results flagged for a closer look

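The change on OP9-Jag1 differed between Kit+ and Kit- cells in 6 of the 132 named genes (adjusted p from limma on that difference). Over all genes the share was 0.582%. Most named genes were chosen by their p in Kit+J against Kit+, a difference that is part of this test. The differences below are therefore a description. The largest was that of Sema6a, a transmembrane semaphorin: it differed by 3.62 (standard error 0.36, adjusted p = 0.000437), with means of 5.30 in Kit+, 6.66 in Kit+J, 8.33 in Kit- and 6.08 in Kit-J. Nrp1, a co-receptor of VEGF and semaphorins, differed by 2.91 (adjusted p = 0.000437) and the angiopoietin receptor Tek by 2.07 (adjusted p = 0.00401), in both with a fall in Kit- cells (-2.49 and -2.63) that exceeded the differences in Kit+ cells (0.42 and -0.56). Both were dim in fresh Kit+ cells, with means of 4.76 and 5.13, below the median of all signals (5.29). Fresh Kit- cells had means of 8.83 and 8.6. Kit+ cells thus had little room for such a fall, and the part of this starting level was not tested. Capn2 differed by 3 (adjusted p = 0.0325), with 1.81 in Kit+ and -1.19 in Kit- cells. For H2bc1 the value was -2.23 (adjusted p = 0.0155), with 7.48 in Kit+ and 5.73 in Kit+J beside 5.88 in Kit- and 6.35 in Kit-J. Fresh Kit- cells were thus already near the level of Kit+J, and the part of this starting level was not tested. For Nr4a1 it was -1.92 (adjusted p = 0.0359), with 8.27 and 6.35 beside 7.55 and 7.54. Kit-J rests on 2 arrays, for each of which 1 line of the labels names the other Kit population.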

How the results depend on the processing

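The count of genes called lower, 4 as reported, was 0 with only the 6 arrays fitted, 2 with housekeeping scaling and 0 to 11 when single arrays were left out. With all 34760 probe sets tested, 9 probe sets were called lower. Of these, only those of Jun, Nr4a1, H2bc1, Eif4e3 and Adgrl2 carried a gene symbol. For Adgrl2 this was not the brightest probe set (-1.53). The brightest one, used for the gene, gave -0.69 with overlap of arrays (adjusted p = 0.952 from limma). The count called higher, 0 as reported, was 1 with only the 6 arrays fitted (S100a6), 1 without dim genes (Taf3), 4 with housekeeping scaling, 5 with array weights, 1 over all probe sets (a probe set without a gene symbol), 9 with no OP9-Dll4 array fitted and 0 to 7 when single arrays were left out. With no OP9-Dll4 array, Hmox1 was called (adjusted p = 0.0214), as were Penk, which encodes preproenkephalin (2.81, adjusted p = 0.0135), and Cds1, Scin, Fat1 and Lamb1, and Eif4e3 was not (0.0531). Housekeeping scaling moved the median of all genes by 0.044, lowered the genes lower at an unadjusted p under 0.05 to 435 and those lower without overlap to 772, and left 531 and 1414 higher. With no OP9-Dll4 array 803 and 798 genes were higher and lower at an unadjusted p under 0.05, and single-array leave-outs gave 474 to 802 and 548 to 727. The medians of the immediate early, heat shock, histone, oxidative stress and both blood lists kept their sign under both scalings; with housekeeping scaling 13 oxidative stress genes lay higher, and 8 immediate early, 6 histone, 7 blood surface and 5 blood transcription factor genes lower, without overlap. The replicate numbers were not taken to pair the arrays, since same-numbered Kit+ and Kit+J arrays shared little of their deviations from the group means. The correlations of these deviations were 0.011, 0.026 and 0.112 for same-numbered arrays, and -0.116 to 0.092 for differently numbered ones. A fixed replicate block gave 3 lower (Jun, Nr4a1 and Hspa1a) and a random replicate block 4, with 0 higher in each. Jun and Nr4a1 were called in 9 of the 10 settings other than leave-outs, H2bc1 in 7 and Eif4e3 in 5. Of the values of 132 named genes, 2055 kept direction and side of the threshold, 26 lost and 21 gained the call, and 9 changed sign, all with adjusted p of at least 0.967: Rbpj (-0.0341) and Myh9 (-0.14) with the mean of probe sets, Rplp0 (0.0024) with quantile normalization, Kit (0.0275) with array weights, and Cd68 (-0.0407 to 0.56), B2m (-0.46 to 0.0612), Kit (-0.35 to 0.11), Cdh5 (-0.75 to 0.0766) and Jag1 (-0.35 to 0.006) when single arrays were left out.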

Other observations

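Other metabolic and growth genes held 0 calls. Of 24 ribosome biogenesis genes 4 (16.7%) lay higher without overlap and 0 lower, beside 5.67% and 6.06% of all genes. Rrs1 led them (0.70, adjusted p = 0.208 from limma), with Gnl3 at 0.42 and a list median of 0.04. Of 18 cholesterol genes the median was 0.26, with 2 (11.1%) higher and 1 (5.56%) lower without overlap, beside 5.67% and 6.06% of all genes. Hmgcs1 (0.62), of the mevalonate pathway, and Insig1 (0.57), its sterol-regulated feedback partner, lay higher without overlap, and Ebp, a sterol isomerase, lay lower, at 6.39, 6.56 and 5.75 in Kit+ and 5.17, 5.44 and 4.69 in Kit+J (-1.13, adjusted p = 0.214 from limma). Among 11 glucocorticoid-responsive genes, Fkbp5 (0.51) lay higher and Zbtb16 (-1.24), a zinc finger factor also known as PLZF, lower without overlap, while Sgk1 differed by 0.10. In all, 1 (9.09%) lay higher and 3 (27.3%) lower, beside 5.67% and 6.06% of all genes. With housekeeping scaling these counts were 0 and 1, beside 1414 and 772 of all 19937 genes.

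The largest difference of all genes was that of Penk, which encodes preproenkephalin, and it was picked out after its values were seen. It was at 6.29, 5.75 and 5.79 in Kit+ and at 9.15, 8.03 and 9.07 in Kit+J (2.81, standard error 0.70, adjusted p = 0.308 from limma). Scin, an actin-severing protein, was at 4.24, 3.57 and 3.71 against 6.70, 5.87 and 6.02 (2.36, adjusted p = 0.308 from limma). Neither pair of groups overlapped, and both genes were called when no OP9-Dll4 array was fitted (adjusted p = 0.0135 and 0.0259 from limma).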
